A study of Mus musculus with 12 samples.

Results

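The response of total RNA to 800 µM 4-thiouridine (4sU) was measured in NIH-3T3 cells whose 4sU was converted inside methanol-fixed cells. NIH-3T3 is an established line of mouse fibroblasts, wild type per the labels. The comparison sets 2 libraries grown with 800 µM 4sU for 2 h, called A and B, against 2 libraries, also called A and B, that received no 4sU and went through the same fixation and conversion. These are 4 of the 12 libraries of the series. They were chosen by their labels, and no measured value entered the choice. The other libraries are fixed cells at 200 µM and a second procedure in which RNA isolated from cells with no 4sU, 200 µM or 800 µM was converted in tubes. Fixed cells reacted with iodoacetamide at a higher temperature and for a shorter time than RNA in tubes, so fixation, heat and time cannot be told apart. The labels do not say whether A and B are separate cultures, so a p-value here reflects the spread among these libraries, which may be technical.

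4sU is a uridine analogue that cells take up, phosphorylate and build into RNA during transcription. SLAM-seq alkylates the incorporated 4sU, which reverse transcription then reads as cytidine, so that reads from RNA made during labelling can be counted apart from older reads. RNAs with short half-lives, such as those of immediate early genes and many signalling regulators, are replaced within the labelling time, whereas RNAs for ribosomal proteins and structural proteins are mostly older. At high doses 4sU is known to inhibit ribosomal RNA processing and to cause nucleolar stress, and labelled RNA can be lost in handling, so total RNA levels with and without 4sU are compared to see what the label itself does.

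Levels are TMM-scaled CPM, a gene's counts relative to the total of its library, so in these bulk samples less RNA per cell and fewer cells cannot be told apart. Library totals in the comparison were 5385243 and 6211608 counts without 4sU and 5840808 and 6359853 at 800 µM, and between 3629634 and 7762635 over the series. The marker sums that follow are instead plain CPM, without TMM scaling. Of these 4 libraries, scaling would raise the sums of 800 µM library A most. Its TMM factor was 0.835, against 0.940 in B and 0.989 and 1.01 without 4sU. The 10 fibroblast markers were all detected, with a sum of 18870 and 17770 CPM without 4sU and 19420 and 18600 CPM at 800 µM. Summed markers of epithelium, endothelium and muscle reached at most 1.10 CPM in any of the 4 libraries, and Vwf and Ptprc had no count. These sums rest on the markers that the table holds, 3 of 6 for epithelium, 5 of 5 for endothelium and 1 of 5 for muscle. Macrophage markers summed to 14.0 to 17.4 CPM, neural markers to 10.1 to 14.0 CPM and adipocyte markers to 3.46 to 5.76 CPM, from 5 of 7, 4 of 5 and 2 of 5 listed genes.

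The 800 µM libraries A and B stood further apart from each other than the libraries of any other group. Their counts differed with a chi-square of 22.8 per degree of freedom, against 3.23 to 7.08 in the other 5 groups. Their log2 levels had r = 0.978 across genes, against 0.980 to 0.989 in the others. On the first principal component, which held 47.4% of the variance, library A scored 45.4, library B 27.9 and the libraries without 4sU 21.4 and 22.5. The TMM factor of A was 0.835 and that of B 0.940, against 0.989 and 1.01 without 4sU. For this reason A and B are given apart, and calls lost without A are listed.

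After 800 µM 4sU, 295 of 11080 genes tested (2.66%) passed a Benjamini-Hochberg (BH) adjusted p of 0.05 in edgeR. RNA for 86 genes (0.776%) rose and RNA for 209 genes (1.89%) fell, and 24 of the rises and 74 of the falls exceeded 2-fold. The growth factor ligands Hbegf and Ereg, the p53 targets Cdkn1a and Mdm2 and the zinc genes Mt2 and Slc30a1 were among the rises. The insulin receptor substrate Irs1, the BMP co-receptor Rgma and the RNA methylation factor Mettl14 were among the falls. In all 295 genes both 800 µM libraries lay on the same side of both libraries without 4sU. Over all genes tested, 24.2% lay above in this way and 25.1% lay below. The median log2 fold of the risen genes was 0.88 in A and 0.60 in B, and that of the fallen genes -0.91 in A and -0.84 in B. A moved further than B in 67 of the 86 rises and in 111 of the 209 falls, against 6465 of all 11080 genes tested. The share was thus above that of all genes in the rises but not in the falls. At the edge of the threshold, Adamts1 had an adjusted p of 0.04997 (edgeR, BH) and Rpp30 one of 0.05047.

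The number of calls depended on single libraries. Without library A, 236 genes passed (111 rose, 125 fell), and 127 of these were among the 295. Without library B, 1199 genes passed. Without the A library that received no 4sU, 32 passed, and without the B library that received none, 24. A set of 16 genes passed in all 4 of these fits. Angptl4, Hbegf, Lsmem1 and Cdkn1a were among its rises, and Irs1, Cdc42ep2, Lurap1l, Slf2, Rgma, G2e3, Pim3, Slc38a2, Fam43a, Medag and Pbx2 fell. Other genes named below as risen or fallen each missed the threshold in at least 1 of these fits. Without library A alone, the rises of Taf1d, Uck2, Errfi1, Aen, Cox7b, Ccl2, Klf4, Arhgap31, Mtor, Slc2a1, Cfl1, Rpl11, Mrpl40, Rps7 and Rpl21 missed it, with adjusted p-values in edgeR (BH) from 0.0518 for Taf1d to 0.256 for Rpl21. So did the falls of Cdc20, Stard13, Egr1, Eno2, Pdpk1, Gga3, Cenpe, Wee1, Runx1t1, Cnot6l, Irs2, Klf2 and Ier5l, from 0.0518 for Cdc20 to 0.244 for Ier5l. The split moved with the scaling and the tool: in edgeR 29.2% of the calls were rises with TMM, 47.4% with RLE size factors and 6.29% when the libraries were scaled on the genes with the least new RNA, which set the median log2 fold of all genes to -0.16. DESeq2, which also differs in its test and filter, gave 61.6%.

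**Figure D1:**
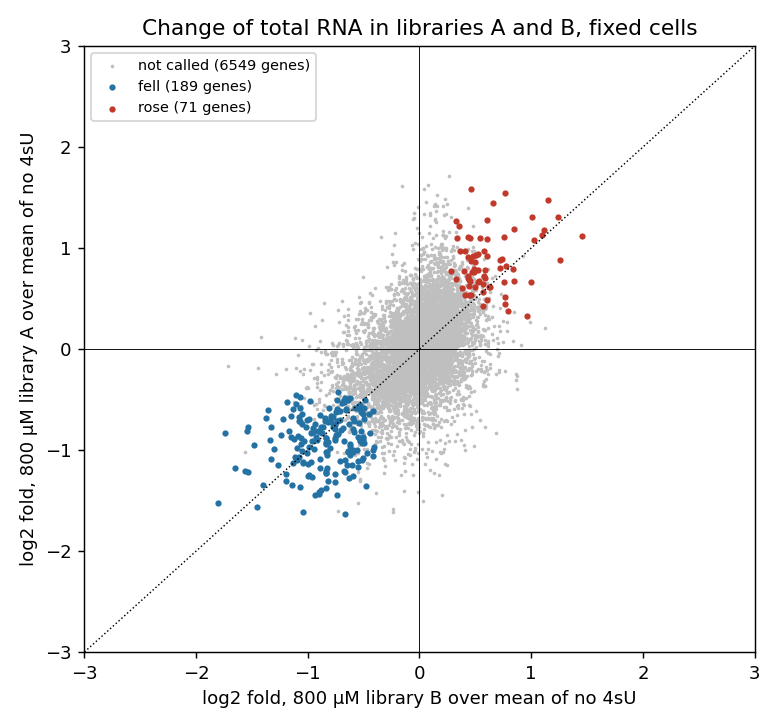
Log2 fold of total RNA over the mean of the 2 libraries without 4sU, for 800 µM library B (horizontal) and library A (vertical), in 6809 genes whose counts averaged 100 or more without 4sU. Red points (71 genes) rose and blue points (189 genes) fell in edgeR, and the cloud of genes not called is wider along the axis of A.

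A pair of ligands of the epidermal growth factor receptor rose. Of 5 tested genes of the receptor family and its ligands, 2 rose and none fell. Over all genes tested 0.776% rose and 1.89% fell, the shares beside which this and later lists are to be read. Hbegf, heparin-binding EGF-like growth factor, had 54.3 and 48.8 CPM without 4sU and 113 and 142 CPM at 800 µM, a log2 fold of 1.31 (SE 0.15; edgeR, BH-adjusted p = 0.000258). Ereg, epiregulin, had 13.5 and 10.9 CPM without 4sU and 47.6 and 32.0 CPM at 800 µM, a log2 fold of 1.70 (SE 0.25; edgeR, BH-adjusted p = 0.00138). B was the higher library for Hbegf and A for Ereg, and in neither gene did the groups overlap. The receptors themselves did not pass: Egfr had a log2 fold of -0.27 and Erbb2 one of -0.07. Of 17 tested inhibitors that feed back on receptor and MAP kinase signalling, 1 rose and 1 fell, and without A none rose and 1 fell. Errfi1, which binds and inhibits the EGF receptor, went from 45.5 and 60.8 CPM to 86.8 and 80.0 CPM, whereas Dusp1, a phosphatase of MAP kinases, went from 91.7 and 85.9 CPM to 62.0 and 44.9 CPM.

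Angptl4 (chr17:33773750-33781830, minus strand, GRCm38) encodes a secreted inhibitor of lipoprotein lipase. Its level was 56.4 and 50.9 CPM without 4sU and 133 and 127 CPM at 800 µM, a log2 fold of 1.28 (SE 0.14; edgeR, BH-adjusted p = 0.000194). Both 800 µM libraries were more than 2-fold above both others. Plaur, the urokinase receptor, went from 31.6 and 33.3 CPM to 73.9 and 70.8 CPM. Il11, a cytokine of the interleukin-6 family, went from 10.52 and 7.68 CPM to 25.04 and 21.3 CPM. In both genes A and B were close, and the log2 folds were 1.16 and 1.35. Of 18 tested NF-kappaB targets and cytokines, 3 rose and none fell, with a list median of -0.08 against -0.0009 over all genes. Without A 2 rose and 2 fell. Ptgs2, cyclooxygenase 2, rose from 318 and 331 CPM to 787 CPM in A and 494 CPM in B, and the chemokine Ccl2 from 139 and 160 CPM to 293 and 224 CPM. For both, A was the higher library.

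The sequences upstream of Il11 and Plaur, both described above, are shown because each holds the AP-1 site TGACTCA (in capitals, on either strand), to which Fos and Jun proteins bind. Windows run from 250 bases before to 50 bases after the RefSeq gene start on GRCm38.p6, 5′ to 3′ on the strand of the gene. Il11 is at chr7:4778092-4778391, minus strand, where the site reads TGAGTCA on the gene's strand, and Plaur is at chr7:24462233-24462532, plus strand.
Il11: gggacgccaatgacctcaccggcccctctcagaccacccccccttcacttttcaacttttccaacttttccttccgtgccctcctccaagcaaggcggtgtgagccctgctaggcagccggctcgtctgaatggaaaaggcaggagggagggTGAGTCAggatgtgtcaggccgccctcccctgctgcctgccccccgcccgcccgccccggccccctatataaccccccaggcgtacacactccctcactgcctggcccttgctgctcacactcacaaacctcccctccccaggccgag
Plaur: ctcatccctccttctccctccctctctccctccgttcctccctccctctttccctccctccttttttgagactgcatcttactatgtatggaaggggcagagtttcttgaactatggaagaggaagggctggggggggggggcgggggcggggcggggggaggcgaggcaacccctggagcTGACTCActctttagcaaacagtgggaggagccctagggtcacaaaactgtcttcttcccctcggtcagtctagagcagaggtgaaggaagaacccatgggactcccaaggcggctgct
The site was found in 6 of 78 windows of risen genes (7.69%), which belong to Cgref1, Il11, Mt2, Plaur and Sh3kbp1. It was in 3 of 205 windows of fallen genes (1.46%), in 3.50% of the windows of all genes tested and in 5.202% of all windows. RefSeq windows were matched for 63 of the 86 risen and 160 of the 209 fallen genes, and some genes had more than 1 window. A match describes these letters only.

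Of 5 tested metallothioneins, zinc transporters and their regulator, 2 rose and none fell, and the list median was 0.33 with and 0.38 without library A. Mt2, metallothionein 2, which binds zinc and other metals, had 329 and 351 CPM without 4sU and 600.4 and 581 CPM at 800 µM, a log2 fold of 0.80 (SE 0.12; edgeR, BH-adjusted p = 0.00231). Slc30a1, the zinc exporter of the plasma membrane, had 25.2 and 18.9 CPM without 4sU and 41.3 and 37.0 CPM at 800 µM, a log2 fold of 0.83 (SE 0.18; edgeR, BH-adjusted p = 0.0192). A and B lay close together for both genes and did not overlap with the libraries without 4sU. Mt1 had a log2 fold of 0.33 and Mtf1, the zinc-sensing transcription factor, one of 0.26, and neither passed. The windows of Mt2 (chr8:94172368-94172667, plus strand) and Slc30a1 (chr1:191906531-191906830, plus strand) are shown because both hold cores of the metal response element that Mtf1 binds, TGCACNC or TGCGCNC on either strand, in capitals.
Mt2: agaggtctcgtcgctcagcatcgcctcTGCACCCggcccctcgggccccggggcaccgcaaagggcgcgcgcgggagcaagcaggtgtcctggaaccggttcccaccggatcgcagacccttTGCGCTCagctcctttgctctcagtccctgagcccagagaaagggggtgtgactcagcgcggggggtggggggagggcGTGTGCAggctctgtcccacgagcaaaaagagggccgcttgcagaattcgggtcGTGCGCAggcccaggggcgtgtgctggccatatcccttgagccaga
Slc30a1: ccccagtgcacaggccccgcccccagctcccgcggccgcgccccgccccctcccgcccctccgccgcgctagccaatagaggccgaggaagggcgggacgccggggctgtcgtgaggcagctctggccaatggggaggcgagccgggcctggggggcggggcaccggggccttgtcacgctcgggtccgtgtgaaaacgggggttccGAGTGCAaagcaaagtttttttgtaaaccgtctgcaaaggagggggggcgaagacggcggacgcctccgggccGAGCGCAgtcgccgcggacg
Mt2 held 2 matches of each core, and Slc30a1 held 1 of each. TGCACNC was in 12.5% of the windows of all genes tested, in 12 of 78 windows of risen genes (15.4%) and in 20 of 205 windows of fallen genes (9.76%). TGCGCNC was in 27.2%, in 18 of 78 (23.1%) and in 65 of 205 (31.7%), so it was less frequent in the windows of risen genes than in those of fallen genes. A match describes these letters and is not a site.

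Immediate early genes, mostly transcription factors but also Btg2, which is counted again among the decay factors, moved in both directions. Of 25 tested, 3 rose (Nr4a1, Egr3, Btg2) and 3 fell (Ier5, Egr1, Ier5l), with a list median of 0.09, and without A 4 rose and 1 fell. Nr4a1, an orphan nuclear receptor, went from 52.6 and 53.3 CPM to 116 and 114 CPM, a log2 fold of 1.12 (SE 0.18; edgeR, BH-adjusted p = 0.00301). Egr3 went from 16.5 and 15.8 CPM to 28.5 CPM in A and 51.7 CPM in B, so its rise was larger in B. Egr1, a zinc finger protein of the same family, went the other way, from 58.2 and 65.3 CPM to 30.2 and 39.8 CPM. Ier5 went from 430.4 and 362 CPM to 250.4 and 229 CPM. Without A, Egr1 had a log2 fold of -0.58 and an adjusted p of 0.0897 (edgeR, BH), while Ier5 kept -0.74. Ier5l fell by 0.72 on the log2 scale and was named after its value was seen. Fos was barely counted, with 0.376 and 2.40 CPM without 4sU and 1.23 and 1.00 CPM at 800 µM. Myc, with 19.5 and 24.8 CPM against 15.2 and 25.3 CPM, overlapped between groups. Among 11 Kruppel-like factors Klf4 rose by a log2 fold of 0.64 and Klf2 fell by 0.83 on the log2 scale, and neither passed without A.

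Of 25 tested p53 targets, 3 rose and none fell, and the list median was -0.02. Cdkn1a (chr17:29090976-29100727, plus strand), the cyclin-dependent kinase inhibitor p21, had 142 and 135 CPM without 4sU and 255 and 332 CPM at 800 µM, a log2 fold of 1.08 (SE 0.15; edgeR, BH-adjusted p = 0.00123). Mdm2, the ubiquitin ligase of p53, had 87.0 and 86.7 CPM without 4sU and 254 and 148 CPM at 800 µM, a log2 fold of 1.21 (SE 0.21; edgeR, BH-adjusted p = 0.00394). Cdkn1a was higher in B and Mdm2 was higher in A, and without A the log2 folds were 1.32 and 0.83. Aen, a nuclease gene induced by p53, went from 59.7 and 49.7 CPM to 117 and 83.4 CPM. Skil, a repressor of Smad signalling, went from 24.4 and 25.9 CPM to 53.6 and 51.7 CPM. Noct, nocturnin, went from 7.89 and 9.76 CPM to 15.6 and 24.6 CPM, and Arhgap31 from 4.70 and 4.64 CPM to 10.9 and 10.55 CPM.

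**Figure D2:**
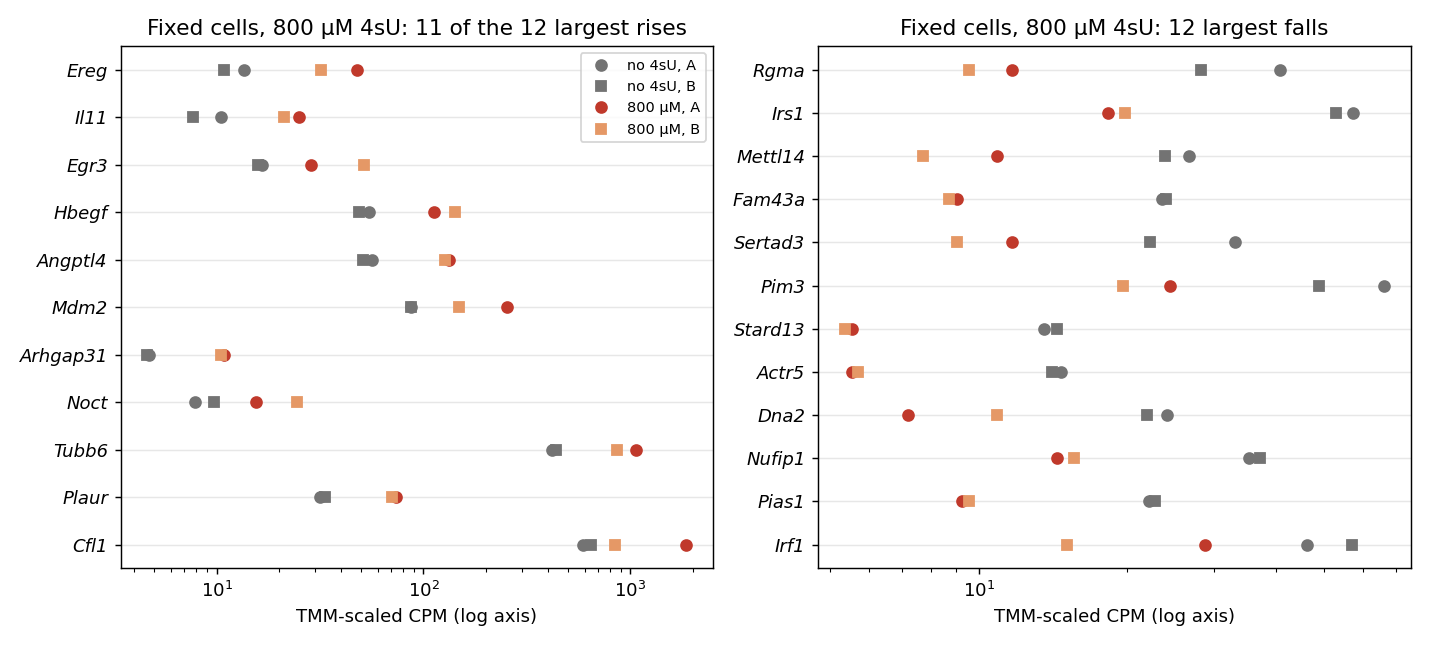
Level in TMM-scaled CPM on a log axis of 11 of the 12 genes with the largest rises (left) and the 12 with the largest falls (right) in fixed cells, in each of the 2 libraries without 4sU (grey) and the 2 at 800 µM (red and orange), circles for A and squares for B. The 23 genes were chosen so that grey and coloured points do not overlap. Cfl1 is at 1855 CPM in A and 847 CPM in B.

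Insulin and PI3 kinase signalling held 4 falls and 1 rise among 24 tested genes, with a list median of -0.20. Without A 2 fell, none rose and the median was -0.09. Irs1 (chr1:82233101-82291416, minus strand), the insulin receptor substrate 1, had 57.3 and 52.9 CPM without 4sU and 18.3 and 19.8 CPM at 800 µM, a log2 fold of -1.53 (SE 0.18; edgeR, BH-adjusted p = 0.000258). Pim3 (chr15:88862186-88865726, plus strand), a serine/threonine kinase, had 66.1 and 48.9 CPM without 4sU and 24.4 and 19.6 CPM at 800 µM, a log2 fold of -1.39 (SE 0.20; edgeR, BH-adjusted p = 0.00123). Both genes lay far below the libraries without 4sU in A and in B alike. Irs2 went from 39.3 and 33.7 CPM to 16.6 and 24.8 CPM and Pdpk1, the kinase that activates Akt, from 114 and 122 CPM to 58.5 and 77.7 CPM. Without A, the adjusted p of Irs2 was 0.223 and that of Pdpk1 0.104 (edgeR, BH). Mtor, named after its value was seen, was the rise, with a log2 fold of 0.83.

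Other large falls were spread over several functions. Rgma (chr7:73375509-73419899, plus strand), repulsive guidance molecule A and a BMP co-receptor, had 40.8 and 28.1 CPM without 4sU and 11.7 and 9.54 CPM at 800 µM, a log2 fold of -1.70 (SE 0.22; edgeR, BH-adjusted p = 0.000547), the largest fall by the naming rule. Mettl14, a subunit of the enzyme that writes N6-methyladenosine, went from 26.7 and 23.8 CPM to 10.9 and 7.70 CPM, a log2 fold of -1.45 (SE 0.27; edgeR, BH-adjusted p = 0.00719). It was the only fall among 18 genes that write, read or erase this mark, none of which rose, and the list median was -0.17, or -0.06 without A. Fam43a (chr16:30599723-30602797, plus strand) went from 23.5 and 24.0 CPM to 9.03 and 8.70 CPM. Sertad3, a transcriptional coregulator, went from 33.1 and 22.2 CPM to 11.7 and 9.04 CPM. Pias1, a SUMO ligase, went from 22.2 and 22.7 CPM to 9.24 and 9.54 CPM. The log2 folds of these 3 genes were -1.42, -1.42 and -1.25, with A and B close together. Dna2, a nuclease and helicase of DNA replication and repair, fell by 1.33 on the log2 scale, Actr5, a subunit of the INO80 remodelling complex, by 1.35, Stard13 by 1.36, and Nufip1, an RNA-binding protein of snoRNP assembly, by 1.27. Irf1, an interferon-inducible transcription factor, went from 46.2 and 56.9 CPM to 28.7 CPM in A and 15.1 CPM in B, so that its fall was larger in B. It was the only call among 12 interferon response genes.

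Lists of stress and metabolic genes held few calls. Among 21 genes of the integrated stress response Chac1, a glutathione-degrading enzyme, fell from 57.5 and 48.1 CPM to 24.6 and 20.8 CPM, and none rose. Among 21 genes of the unfolded protein response Herpud1, a factor of protein degradation at the endoplasmic reticulum, fell from 64.4 and 54.9 CPM to 34.7 and 32.5 CPM, and none rose. The groups did not overlap for either of these genes. In the cell cycle, 2 of 26 mitosis genes fell and none rose, with a list median of -0.24 that was -0.17 in A and -0.35 in B. Cdc20, an activator of the anaphase-promoting complex, went from 358 and 373 CPM to 199.9 and 249 CPM, and the kinetochore motor Cenpe from 97.5 and 109 CPM to 70.4 and 71.3 CPM. Neither passed without A. Cdkn2d, an inhibitor of cyclin-dependent kinases 4 and 6, fell by 0.97 on the log2 scale, and it was the only call among 18 G1 regulators, of which 1 rose and 2 fell without A. Of 16 clock genes Hlf, a bZIP transcription factor, fell from 26.9 and 24.0 CPM to 12.7 and 12.5 CPM and none rose, and the list median of -0.28 was -0.19 without A. None of 18 SR splicing factors and Clk kinases, 27 factors of polymerase II elongation, 25 DNA replication genes, 20 aminoacyl-tRNA synthetases, 36 proteasome subunits, 32 histone genes or 17 heat shock genes passed in edgeR. Among 30 decay factors 1 rose and 1 fell: Btg2, an adaptor of the deadenylase complex, rose by a log2 fold of 1.04 and Cnot6l, a deadenylase, fell by 0.71 on the log2 scale. Without A 2 decay factors rose and none fell. Uck2, the uridine-cytidine kinase that also phosphorylates uridine analogues, rose from 163 and 148 CPM to 226 and 211 CPM and was the only call among 20 genes of nucleoside uptake and pyrimidine synthesis. Taf1d, a subunit of the RNA polymerase I initiation factor SL1, rose from 220.0 and 219 CPM to 338 and 298 CPM, the only call among 40 nucleolar and ribosome biogenesis factors. Of 296 Zfp zinc finger genes 1 rose and 4 fell, with a list median of -0.12, or -0.11 without A. Both counts were smaller shares than the 0.776% of rises and 1.89% of falls over all genes. Zfp639 fell by 1.03 on the log2 scale. Among 19 glycolysis genes 1 rose and 1 fell. Slc2a1, the glucose transporter GLUT1, went from 90.7 and 94.0 CPM to 174 and 125 CPM, and Eno2, an enolase, from 43.4 and 43.2 CPM to 19.9 and 27.1 CPM, and neither passed without A. Among 36 translation factors Eif3m, a subunit of initiation factor 3, rose from 159 and 185 CPM to 273 and 248 CPM and none fell. Among 22 actin genes and serum response factor targets, Cfl1 rose and Filip1l fell, the latter from 35.1 and 36.6 CPM to 17.9 and 14.2 CPM. Of the nuclear long noncoding RNAs Malat1, Neat1 and Meg3 none passed. Meg3 had 602 and 542 CPM without 4sU, 294 CPM in A and 499 CPM in B, so its lower level was mostly in A.

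Several lists of abundant housekeeping genes had a higher median fold in library A than in B, and others a lower one. Of 84 cytosolic ribosomal protein genes 4 rose and none fell, and the list median was 0.61 in A and 0.11 in B. Without A the median was 0.17. Rpl21 had 1064 and 1025 CPM without 4sU, 2513 CPM in A and 1312 CPM in B, and Rps7 had 1171 and 1180 CPM, 2735 CPM in A and 1497 CPM in B. B was nearer to the libraries without 4sU than to A in both genes. Without A neither passed, with adjusted p-values of 0.256 and 0.24 (edgeR, BH). Cofilin, Cfl1, an actin-severing protein, had 587 and 646 CPM without 4sU, 1855 CPM in A and 847 CPM in B, and without A its log2 fold was 0.51 in place of 1.13 (edgeR, BH-adjusted p = 0.126). Hspa8, a constitutive heat shock protein, was not called, with 329 and 356 CPM without 4sU, 869 CPM in A and 365 CPM in B. In Cfl1 and Hspa8 too, B lay closer to the libraries without 4sU than to A. Among other lists, heat shock genes had a median of 0.49 in A and 0.03 in B, tubulins 0.51 and -0.05, nuclear genes of oxidative phosphorylation 0.37 and 0.13, glycolysis 0.40 and 0.15, and mitochondrial ribosomal proteins 0.30 and 0.06. The order was the other way for actin and serum response factor genes, with 0.05 in A and 0.23 in B, for extracellular matrix genes, with 0.03 and 0.22, and for the fibroblast markers, with -0.21 and 0.03. The medians over all genes were -0.02 and -0.01. Cox7b, a subunit of cytochrome c oxidase, was the only call among 78 oxidative phosphorylation genes, with 254 and 240.4 CPM against 485 and 328 CPM, and Mrpl40 the only one among 77 mitochondrial ribosomal proteins. Without A the log2 fold of Cox7b went from 0.72 to 0.46 and that of Mrpl40 from 0.81 to 0.51, and neither passed. Tubb6, a beta-tubulin, rose in both libraries, from 418 and 437 CPM to 1059 and 862 CPM. The counts of Rpl21, Rps7 and Hspa8 were not whole numbers in any of the 4 libraries (any fractional part of the deposited value counted, with no tolerance), nor those of Cfl1 and Tubb6 in 3 of 4, so reads may have been divided with near-identical copies such as processed pseudogenes or with overlapping genes, and these values are uncertain. Mdm2, Ptgs2, Aen and Wee1 also had non-whole counts in 3 of 4 libraries, and Taf1d, Rpl11 and Malat1 in all 4. Other named genes, such as Il11 and Cox7b, had them in 2 of 4. Among genes often used as standards, Gapdh had 328 and 271 CPM without 4sU, 512 CPM in A and 274 CPM in B, and Actb 9919 and 9648 CPM against 7999 and 9325 CPM, with non-whole counts in all 4 libraries, and neither passed.

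**Figure D3:**
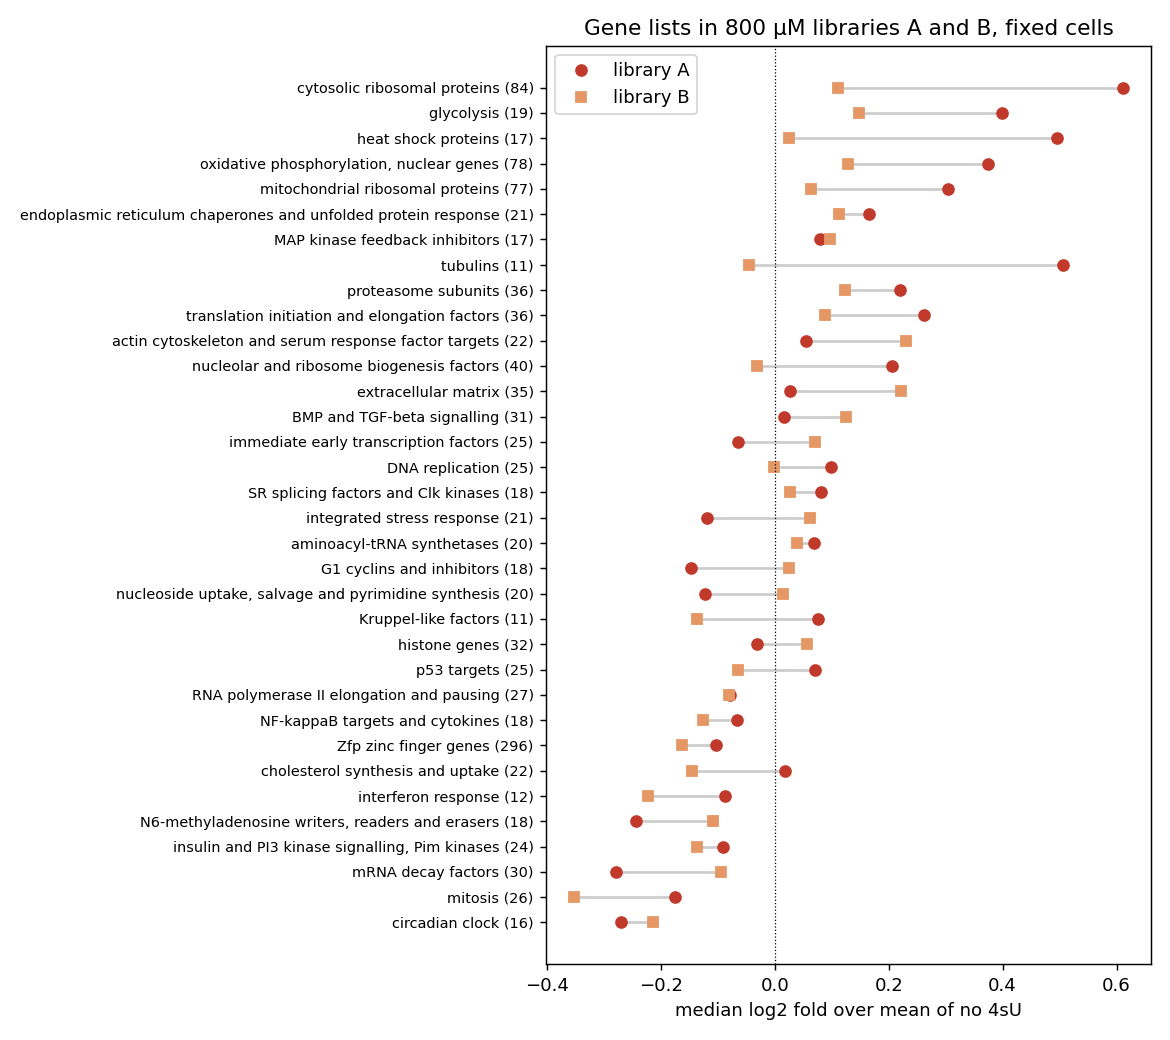
Median log2 fold over the mean of the libraries without 4sU in 800 µM library A (circles) and library B (squares), for gene lists with at least 10 tested genes (number in brackets). Cytosolic ribosomal proteins (0.61 in A, 0.11 in B) and tubulins (0.51 and -0.05) show the widest gaps, and the order of A and B is reversed for extracellular matrix genes (0.03 and 0.22).

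The new-to-total ratio, the share of a gene's RNA that was made during the 2 h of labelling, was lower in A than in B. Over 6809 genes whose counts averaged 100 or more without 4sU, its median was 27.9% in A (quartiles 15.3% and 50.4%) and 34.3% in B (quartiles 19.6% and 59.6%). At 200 µM in fixed cells the medians were 37.97% and 37.27%. A was below B in 5309 genes (78.0%). The interval from the 0.05 to the 0.95 quantile of A lay wholly below that of B in 1712 genes and wholly above it in 92. The median width of this interval was 15.2 points in A and 9.36 points in B, so the ratio was less precise in A. The order of genes was alike, with a Spearman rho of 0.92 across genes, which are not independent replicates and share libraries. Ratios are the deposited maximum a posteriori values, which can reach 100% and then lie above their own 0.95 quantile. There is no ratio for cells without 4sU in the table, so no background can be given.

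The ratio of several risen genes was read differently in A and B. Mdm2 had a ratio of 83.8% in A (0.05 to 0.95 quantile 78.8% to 88.2%) and 99.7% in B (96.9% to 99.8%). Ptgs2 had 81.2% in A (78.4% to 83.9%) and 100% in B (99.5% to 100.0%). Hbegf had 99.2% in A (88.2% to 99.4%) and 100% in B (98.7% to 100.0%). Nearly all Hbegf RNA was new in both, while Mdm2 and Ptgs2 were read as almost wholly new in B but not in A. Wee1, a kinase that restrains entry into mitosis and one of the falls, was at 100% in both libraries. Its intervals were 80.9% to 99.35% in A, where it had 16.0 CPM, and 94.98% to 99.87% in B. Among called genes A and B were furthest apart in Gga3, an adaptor of vesicle sorting, with 31.9% in A (15.3% to 59.8%) and 92.6% in B (77.8% to 97.9%). Runx1t1, a transcriptional corepressor, had 56.3% and 100%, Sertad3 had 55.3% and 96.2%, and Rasa2, a Ras GTPase-activating protein, had 45.4% and 86.1%. These are falls with at most 33.1 CPM in any of the 4 libraries, and their intervals in A are wide. At the other end Cox7b had 4.71% in A and 8.57% in B and Rpl11 8.24% and 11.02%.

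The median share of new RNA was higher in the risen and in the fallen genes than over all genes. The risen genes spread widely, with quartiles of 15.85% and 80.46% in A and 20.5% and 94.51% in B. Over all genes the quartiles in A were 15.32% and 50.41%. The median ratio was 44.5% in A and 52.96% in B for 71 risen genes with a value, and 64.3% and 77.1% for 189 fallen genes, against 27.9% and 34.3% over all 6809. Counts of the 800 µM libraries enter both the ratio and the fold, so the measures are not independent, and no test is given. Genes were put in 10 bins of equal size by the mean ratio of A and B. In the lowest bin the median log2 fold was 0.27 in A and 0.11 in B, and 6 genes rose and none fell. In the bin next to the highest it was -0.23 and -0.20, with 3 rises and 57 falls. In the highest bin it was -0.24 and -0.18, with 25 rises (3.67%) and 65 falls (9.54%). The highest bin held the most rises as well as the most falls.

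**Figure D4:**
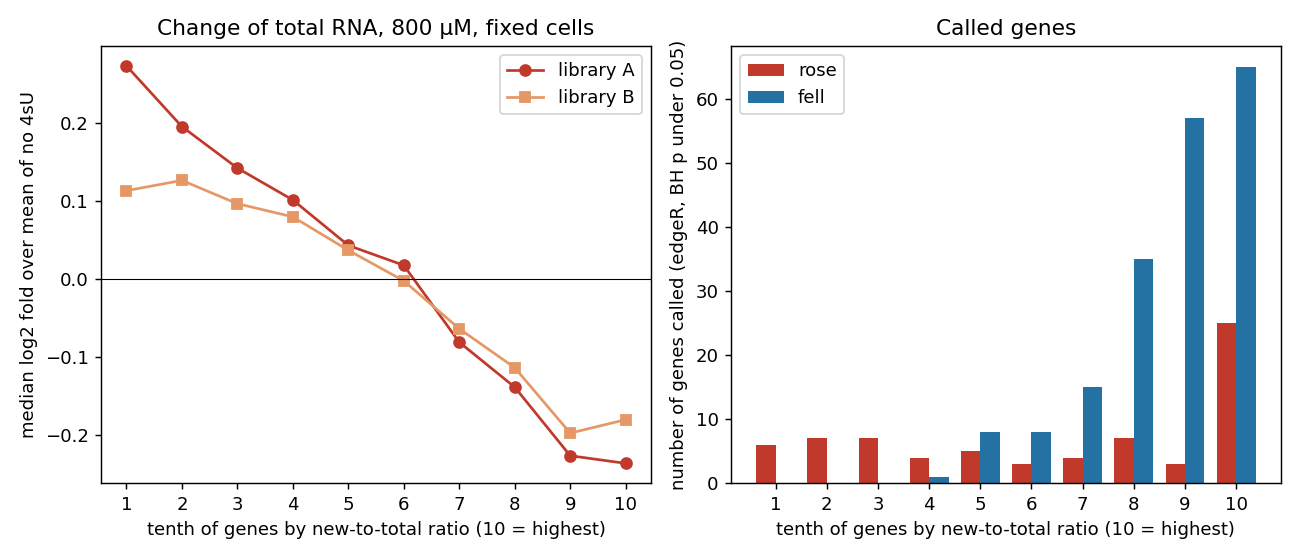
Genes in 10 bins of equal size by new-to-total ratio (mean of A and B, 10 = highest). Left, median log2 fold over the mean of the libraries without 4sU, which goes from 0.27 to -0.24 in A and from 0.11 to -0.18 in B; right, number of genes called in edgeR, with 25 rises and 65 falls in the highest bin.

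The fold fell with the ratio across genes, with a Spearman rho of -0.39 in A and -0.34 in B. The share of labelled RNA that would have to be added back to bring this correlation to 0 was 38.1% in A and 25.2% in B. It was 16.7% and 25.2% at 200 µM in fixed cells and 22.1% and 21.5% at 800 µM in tubes, so A had the highest value of these 6 libraries. With this share added back to the counts of each library, 242 genes passed in edgeR, 137 rises and 105 falls, and 161 of them were among the 295. Rises then made up 56.6% of the calls. The share was set from these same libraries and raises genes with a high ratio most, so a shift from falls to rises is built in. Among named falls Dusp1 went from a log2 fold of -0.74 to -0.41, Ier5 from -0.73 to -0.42 and Egr1 from -0.81 to -0.56, and none of these passed. Nor did Ier5l, Irs2, Klf2, Cnot6l, Cdkn2d, Cenpe, Herpud1, Wee1 and Runx1t1 among the falls, or Eif3m, Rpl21, Rpl11, Rps7, Mrpl40 and Cox7b among the rises. Gene structure also went with the fold, more in A than in B. Across genes the log2 fold had a Spearman rho with transcript length of -0.31 in A and -0.17 in B, and with the number of exons of -0.27 and -0.12. With the thymidine content of the longest transcript it was 0.14 in A and -0.09 in B, of opposite sign. The median length was 3002 bases in risen genes, 4229 in fallen genes and 3385 over all genes tested, and the median number of exons 6, 12 and 9. Length and ratio were themselves related (rho 0.35 in A and 0.36 in B), and their parts in the fold were not tested.

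Splitting each level into new and older RNA showed where the total changed. The product of ratio and CPM gives new RNA, and the rest is older RNA, both as a share of the mean total level without 4sU. Medians cover only genes whose counts averaged 100 or more without 4sU: 6809 in all, 189 of the fallen and 71 of the risen genes. Over all of these the median older RNA was 70.3% in A and 64.8% in B and new RNA 27.8% and 33.5%. In fallen genes older RNA was 18.7% and 11.3% and new RNA 34.6% and 39.3%. In risen genes older RNA was 93.5% and 67.2% and new RNA 70.0% and 73.8%. Irs1 illustrates a fall: older RNA was 3.94% in A and 0% in B, and new RNA 29.2% and 35.8% of the total without 4sU. Rgma had 3.19% and 3.12% older and 30.8% and 24.6% new RNA. In both genes the RNA made in 2 h fell far short of the level without 4sU. Hbegf illustrates a rise, with new RNA at 217% in A and 275% in B and older RNA at 1.73% and 0%. By the same quantiles its older RNA ran from 1.31% to 25.8% in A and from 0.0826% to 3.69% in B. For Mdm2 new RNA was 245% in A and 170.3% in B, and older RNA 47.6% and 0.547%, so both parts were higher in A. In Cfl1 older RNA was 269.6% in A and 119% in B, above the total without 4sU, and new RNA was 31.2% and 18.0%. Older RNA above 100% also stood in Rpl21, at 220.5% in A and 113% in B, and Tubb6, at 159.6% and 119%. Levels are relative to the library total, and counts of these genes were mostly not whole, so shares above 100% are uncertain. Their cause was not tested.

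**Figure D5:**
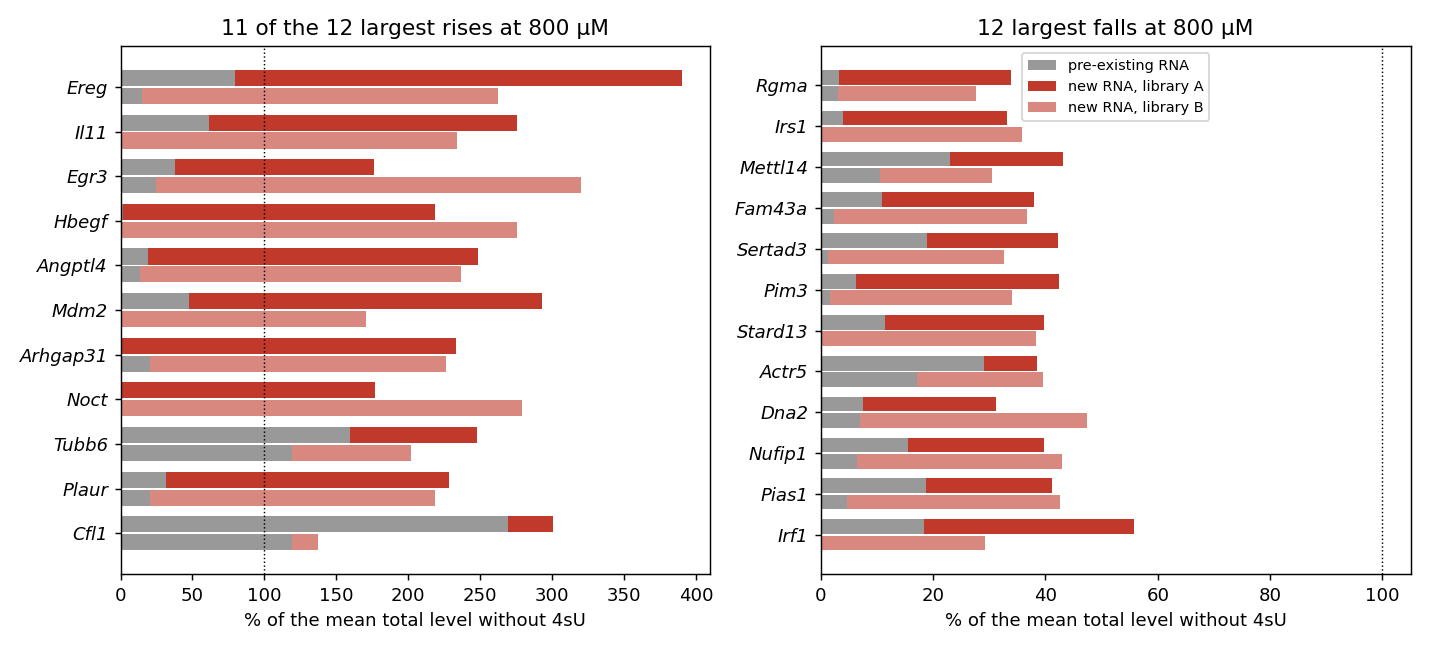
Older RNA (grey) and new RNA (red for library A, pink for library B) as % of the mean total level without 4sU (dotted line at 100%), for 11 of the 12 largest rises (left) and the 12 largest falls (right). The falls were chosen with A and B below both libraries without 4sU, so their new and older RNA sum to under 100%. In Cfl1 older RNA is at 269.6% in A and 119% in B.

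The 800 µM response of fixed cells was compared with that in tubes by the difference of the effects. No gene passed in edgeR (smallest BH-adjusted p 0.796), 654 genes (5.90%) had an unadjusted p under 0.05, and DESeq2 called 0. The median standard error of this difference was 0.29 on the log2 scale. Without 800 µM library B, 123 genes passed. Of the 295 genes, 284 had the same sign in tubes (84 of 86 rises and 200 of 209 falls), against 7449 of all 11080 genes tested (67.2%). In tubes 207 of 11080 genes passed (1.87%), as 101 rises (0.912%) and 106 falls (0.957%), of which 98 were among the 295: 33.2% of the calls in fixed cells and 47.3% of those in tubes. The genes were selected for their change in fixed cells; in tubes the median log2 fold was 0.52 for the 86 rises and -0.52 for the 209 falls. Angptl4 in tubes went from 53.2 and 52.7 CPM to 131 and 131 CPM, and Hbegf from 68.8 and 59.3 CPM to 185 and 167 CPM. Rgma went from 52.7 and 49.6 CPM to 30.6 and 29.4 CPM, a log2 fold of -0.77 in tubes against -1.70 in fixed cells, and the difference of -0.93 (SE 0.29) did not pass (edgeR, BH-adjusted p = 0.822). Levels in tubes and in fixed cells come from separate procedures.

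Against 200 µM in fixed cells no gene passed either (edgeR, smallest BH-adjusted p 0.470), 872 genes (7.87%) had an unadjusted p under 0.05, and DESeq2 called 0. Without 800 µM library B, 484 genes passed. The responses at both doses share the libraries without 4sU, so their values are only set side by side. Against no 4sU, 90 genes passed at 200 µM (0.812%), as 27 rises (0.244%) and 63 falls (0.569%). At 200 µM Angptl4 had 104 and 128 CPM, against 133 and 127 CPM at 800 µM, and Pim3 had 21.4 and 19.9 CPM, against 24.4 and 19.6 CPM. In both genes the dose groups overlapped. Mdm2 had 94.9 and 126 CPM at 200 µM and 254 and 148 CPM at 800 µM, a step of 0.87 (SE 0.20) that did not pass (edgeR, BH-adjusted p = 0.470). Rgma had 18.5 and 18.3 CPM at 200 µM and 11.7 and 9.54 CPM at 800 µM, a step of -0.80 (SE 0.23). Neither step passed. For both genes the dose groups did not overlap, but how many of all genes were like this was not counted for the step. For 800 µM against no 4sU, 24.2% of all genes lay wholly above and 25.1% wholly below.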

How the data were processed

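NIH-3T3 SLAM-seq libraries, 12 in 6 groups, were deposited as 1 table of 15217 genes. Its read counts are expected counts, per the file headers and the values. The new-to-total ratio is a deposited fraction, as posterior mode, mean and 0.05 and 0.95 quantiles, per the file headers. Columns named alpha and beta were deposited as scores and only checked. Tools named in the submitters' processing notes, without roles, are STAR 2.7.10b, Bowtie2 2.3.0 and cutadapt. For the build, the annotation and the tools that made counts and ratios: not given in the sources used here. GENCODE M21 (GRCm38) held 15197 of the gene IDs (20 were not found) and gives all gene coordinates.

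Counts were rounded and tested with the quasi-likelihood F test of edgeR 4.0.16 (R 4.3.3), with TMM scaling, filterByExpr (minimum count 10, minimum total 15) and BH adjustment over 11080 genes, in 1 fit of the 12 libraries without a replicate block (6 residual degrees of freedom, biological coefficient of variation 12.3%). DESeq2 1.42.0 was an alternative. Folds given for A or B alone are log2(CPM + 0.5) against the mean of the libraries without 4sU. Named genes are the 12 largest rises and 12 largest falls that average 50 counts or more and do not overlap between groups, up to 4 called genes of each list (the 2 with the smallest p where none was called), called genes with the highest, lowest and most different ratios, and Gapdh, Actb, Malat1, Myc and Fos, gene models without a common symbol left out. A few genes taken by this rule were not reported here. Members and gene lists were chosen with earlier results of these data known. Scripts were tested on simulated data.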

Additional observations from a re-analysis of the deposited data

How the results depend on the processing

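The fit with the replicate block, which treats letters as pairs, called 238 genes in fixed cells at 800 µM (65 rose, 173 fell; 232 shared with the 295). The deviations of A from the group means had r = 0.00657 between the fixed groups at 800 µM and without 4sU. This value does not settle whether the letters mark pairs. With the letters crossed between 200 and 800 µM, where r was -0.10, the block called 0 genes for the step.

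The count of 295 became 547 with DESeq2 (337 rose), 816 without a filter on low counts, 668 when scaled on the genes with the least new RNA, 40 in a fit of the 4 libraries alone and 96 in a test against a 1.2-fold change. Leaving out 1 library (the single library that remains in its group then borrows its spread from the other groups) gave 24 to 1199 calls. The difference from tubes had 24 calls and the step from 200 µM 127 without a filter on low counts. Leaving out 1 library gave 0 to 123 calls for the difference and 0 to 484 for the step. The median ratio of B was 39.6% with a count minimum of 20. Of genes named without a call, Neat1 turned to a log2 fold of 0.083 and Myc to 0.187 with labelled RNA added back. Leaving out 1 library turned signs too: Gapdh ranged from -0.075 (without 800 µM A) to 0.774, Myc from -0.55 to 0.238 (without 800 µM A; 0.103 without the B library that received no 4sU) and Fos from -1.10 to 1.55 (without that B library). Each group held 2 libraries, and all p-values rest on a spread pooled over the groups. The cause of these shifts was not tested.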
